A study of Mus musculus with 87 samples.

Results

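Boundary B6 is a border between neighbouring topologically associating domains (TADs) on mouse chromosome 12, and its deletion removed chr12:35181339-35194452 (mm10, 13.1 kb). The 9 genes described here, of 43346 Ensembl genes in the tables, are Lamb1, Prkar2b, Twist1, Hdac9, Snx13, Ahr, Bzw2, Sostdc1 and Meox2, which lie within 5 Mb of that interval. They were selected on their position and with earlier expression values of B6 hearts, and for Meox2 of B6 faces, in view, so that these values are described without a test. Of 158 annotated genes within 5 Mb, 80 have a row in the tables, which leaves 71 beside these 9.

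RNA-seq libraries numbered 64 and came from embryonic day 11.5 tissues of FVB mice in 7 lines, each descended from 1 founder and carrying a CRISPR deletion of 1 boundary (B2 to B8). Homozygous embryos were compared with wild-type (WT) embryos from crosses of heterozygous parents. B2 gave 4 homozygous and 4 WT hearts and 6 homozygous and 6 WT lungs. Each of B3 face and heart, B4 gut and midbrain, B5 face and heart, B6 face, B7 face, and B8 forebrain and neural tube gave 2 homozygous and 2 WT samples. B6 and B7 hearts came from 2 homozygous embryos each, and their WT counterparts here are the 8 WT hearts of B2, B3 and B5. In these hearts an effect of the deletion cannot be told apart from one of the line. Boundary B6 is intact in every line other than B6. The labels give sex for the lungs alone, and p-values measure the spread between the samples of a group.

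Libraries held 8391553 to 31793441 counts (median 21393964). In CPM, counts scaled to a common library total, cardiomyocyte markers summed to 7525 to 28000 CPM in hearts against at most 49.6 CPM in lungs, and lung markers to at least 472 CPM in lungs against at most 346 CPM in hearts. WT lungs 5 and 6 stood apart (0.36% and 1.54% of counts mitochondrial, against at least 11.3% in the other WT and homozygous lungs, and 90.1% of counts in the 10 most abundant genes in WT lung 6). Guts held 4513 to 7171 CPM of liver markers, against at most 1210 CPM in hearts and 303 CPM in lungs. Gut markers summed to 184 to 252 CPM in guts, against 170 to 302 CPM in hearts and 150 to 246 CPM in faces. B5 homozygous heart 1 had the lowest cardiomyocyte sum of all hearts (7525 CPM). It held 708 CPM of neuron markers, against at most 127 CPM in the other hearts, and 700 CPM of facial mesenchyme markers. B2 homozygous heart 4 held 1210 CPM of liver markers, against at most 183 CPM in the other hearts.

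TAD boundaries separate stretches of chromatin within which enhancers and promoters meet more often, and many are bound by CTCF, a zinc-finger protein that halts loop extrusion by cohesin. Twist1 (a basic helix-loop-helix factor of cranial neural crest and mesoderm), Meox2 (a homeodomain factor of somites and muscle precursors), Ahr (the ligand-activated aryl hydrocarbon receptor) and Hdac9 (a class IIa histone deacetylase that acts with MEF2 in muscle) regulate transcription. Sostdc1 encodes a secreted inhibitor of BMP and Wnt signals that is known from tooth and hair development, and Lamb1 encodes the beta 1 chain of laminins in basement membranes. Inside the cell act Prkar2b, which binds and restrains the catalytic subunits of protein kinase A, Snx13, a sorting nexin, and Bzw2, which takes part in the control of translation.

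The guide sequences are shown because they directed Cas9 to the edges of the deletion. The expected cut of guide 2 falls at the upper edge, and that of guide 1 lies 19 bases inside the lower edge. The paper determined the breakpoints by Sanger sequencing. Each guide was found once on chromosome 12, at chr12:35181353-35181375 on the minus strand and chr12:35194436-35194458 on the plus strand, in the GRCm38.p6 assembly (mm10). The capitals mark the PAM, the NGG that Cas9 requires.
B6 guide 1: gggcactgggtttcttctatCGG
B6 guide 2: agtaagcaatggttttgcatTGG
The interval held 1 match to a 12-base core of the CTCF motif, searched on both strands, at chr12:35192364-35192375 on the minus strand, 2077 bases before the upper edge. Of 8911 windows of the same length on chromosome 12, 2.8% held a match. The core is in capitals with 14 bases on each side.
CTCF core in the B6 interval: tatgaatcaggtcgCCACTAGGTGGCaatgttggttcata
A match describes the letters and is not a measure of binding.

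Below the deletion lie Snx13 (chr12:35047186-35147479, 33.9 kb from its edge), Hdac9 (chr12:34047580-34917095, 0.26 Mb), Twist1 (chr12:33957671-33959829, 1.22 Mb), Prkar2b (chr12:31958476-32061296, 3.12 Mb) and Lamb1 (chr12:31265234-31329644, 3.85 Mb). Above it lie Ahr (chr12:35497974-35535038, 0.30 Mb), Bzw2 (chr12:36091835-36158080, 0.90 Mb), Sostdc1 (chr12:36314139-36318452, 1.12 Mb) and Meox2 (chr12:37108540-37179534, 1.91 Mb). Bzw2 overlaps Ankmy2, and smaller annotated genes lie within Hdac9, Snx13, Ahr and Meox2. Whether reads were counted by strand is not given in the sources used here, so reads of such neighbours cannot be told apart from those of these genes.

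Promoters of 7 of the 9 genes were in the RefSeq table for this assembly, and those of Ahr and Sostdc1 were not looked at. Within 250 bases before and 50 bases after the start, TATAA was found on either strand in 24.9% of 32851 promoters, and here in Twist1, Meox2 and the upstream one of the promoters listed for Hdac9. The 150 bases before the start are shown for these genes and for Snx13, the gene nearest to the deletion, with TATAA, or TTATA for the minus strand, in capitals.
Twist1, chr12:33957521-33957670, plus strand: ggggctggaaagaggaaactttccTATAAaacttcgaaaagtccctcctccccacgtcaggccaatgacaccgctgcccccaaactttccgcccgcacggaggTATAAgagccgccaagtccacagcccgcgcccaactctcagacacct
Meox2, chr12:37108390-37108539, plus strand: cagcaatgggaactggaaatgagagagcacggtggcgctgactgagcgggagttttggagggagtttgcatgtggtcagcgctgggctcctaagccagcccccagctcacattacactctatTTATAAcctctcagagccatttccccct
Hdac9, chr12:34917096-34917245, minus strand: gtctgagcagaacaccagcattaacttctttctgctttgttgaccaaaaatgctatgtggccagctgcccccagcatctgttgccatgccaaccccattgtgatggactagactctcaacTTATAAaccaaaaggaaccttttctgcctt
Snx13, chr12:35047039-35047188, plus strand: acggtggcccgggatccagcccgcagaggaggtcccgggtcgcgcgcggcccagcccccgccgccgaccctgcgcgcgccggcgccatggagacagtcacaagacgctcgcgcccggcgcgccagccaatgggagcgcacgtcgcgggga
The 300-base windows of Twist1 and Snx13 held 27 and 46 CG pairs against a median of 7 over all promoters, while the Hdac9 window held 0.

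To see where these genes are transcribed when B6 is intact, CPM scaled with TMM over all 64 libraries were read in the WT samples of each tissue (mean ± SD, n libraries). Twist1 was highest in the face (347 ± 13.2 CPM, n = 8) and lowest in the lung (6.74 ± 3.06 CPM, n = 6), a 51.6-fold span of means. Sostdc1 was likewise highest in the face (22.4 ± 2.99 CPM, n = 8), and reached 5.47 ± 1.34 CPM in the neural tube (n = 2) and 0.285 ± 0.187 CPM in the lung (n = 6). Meox2 was highest in the neural tube (27.8 ± 0.246 CPM, n = 2), followed by the face (11.8 ± 3.24 CPM, n = 8), the lung (8.41 ± 1.56 CPM, n = 6) and the gut (5.47 ± 1.46 CPM, n = 2), and lowest in the forebrain (0.249 ± 0.128 CPM, n = 2). For each of these 3 genes the ranges of the highest tissue and the next did not overlap, whereas face and lung overlapped for Meox2, and the tissues below the neural tube overlapped in part for Sostdc1. Libraries labelled neural tube, WT and homozygous, held 291 to 472 CPM of skeletal muscle markers, against at most 184 CPM in other tissues. Their neural tube markers summed to 77.4 to 116 CPM, below forebrains (193 to 228 CPM) and midbrains (289 to 325 CPM). Their neuron markers summed to 1866 to 2331 CPM. The part of muscle or other tissue in the levels given for the neural tube was not tested.

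Hdac9 was high in the heart (19.97 ± 6.21 CPM, n = 8) and the midbrain (17.3 ± 0.141 CPM, n = 2), whose ranges overlapped, and low in the lung (2.50 ± 0.862 CPM, n = 6). Ahr was highest in the lung (15.5 ± 3.31 CPM, n = 6), apart from the neural tube (9.48 ± 0.988 CPM, n = 2) and gut (9.13 ± 0.223 CPM, n = 2), and lowest in the midbrain (2.79 ± 0.646 CPM, n = 2). Lamb1 was high in lung (276 ± 65.8 CPM, n = 6) and heart (243 ± 39.8 CPM, n = 8), intermediate in gut, face and neural tube (130, 115 and 114 CPM), and low in forebrain and midbrain (50.01 and 40.5 CPM). Prkar2b was highest in gut (107 ± 37.7 CPM, n = 2) and midbrain (105 ± 2.116 CPM, n = 2) and lowest in heart (31.2 ± 13.5 CPM, n = 8).

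In CPM, Snx13 and Bzw2 differed least between tissues. Snx13 ran from 21.3 ± 2.25 CPM in the face (n = 8) to 28.6 ± 6.495 CPM in the heart (n = 8), a 1.34-fold span, and Bzw2 from 151 ± 5.88 CPM in the gut (n = 2) to 199 ± 43.2 CPM in the heart (n = 8), a 1.32-fold span. For both genes the ranges of all neighbouring tissues in the order overlapped. When TPM were read in place of CPM, Twist1, Sostdc1 and Meox2 were again highest in face, face and neural tube. The highest tissue became another one for the other 6 genes. Snx13 then ran from 2.25 TPM in the lung to 8.255 TPM in the neural tube, and Bzw2 from 69.6 to 185 TPM in the same tissues. Ahr was highest in the neural tube (3.355 TPM) and gut (2.815 TPM), against 1.68 TPM in the lung. Lamb1 was highest in the heart (54.4 TPM), against 30.2 TPM in the lung.

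**Figure D1:**
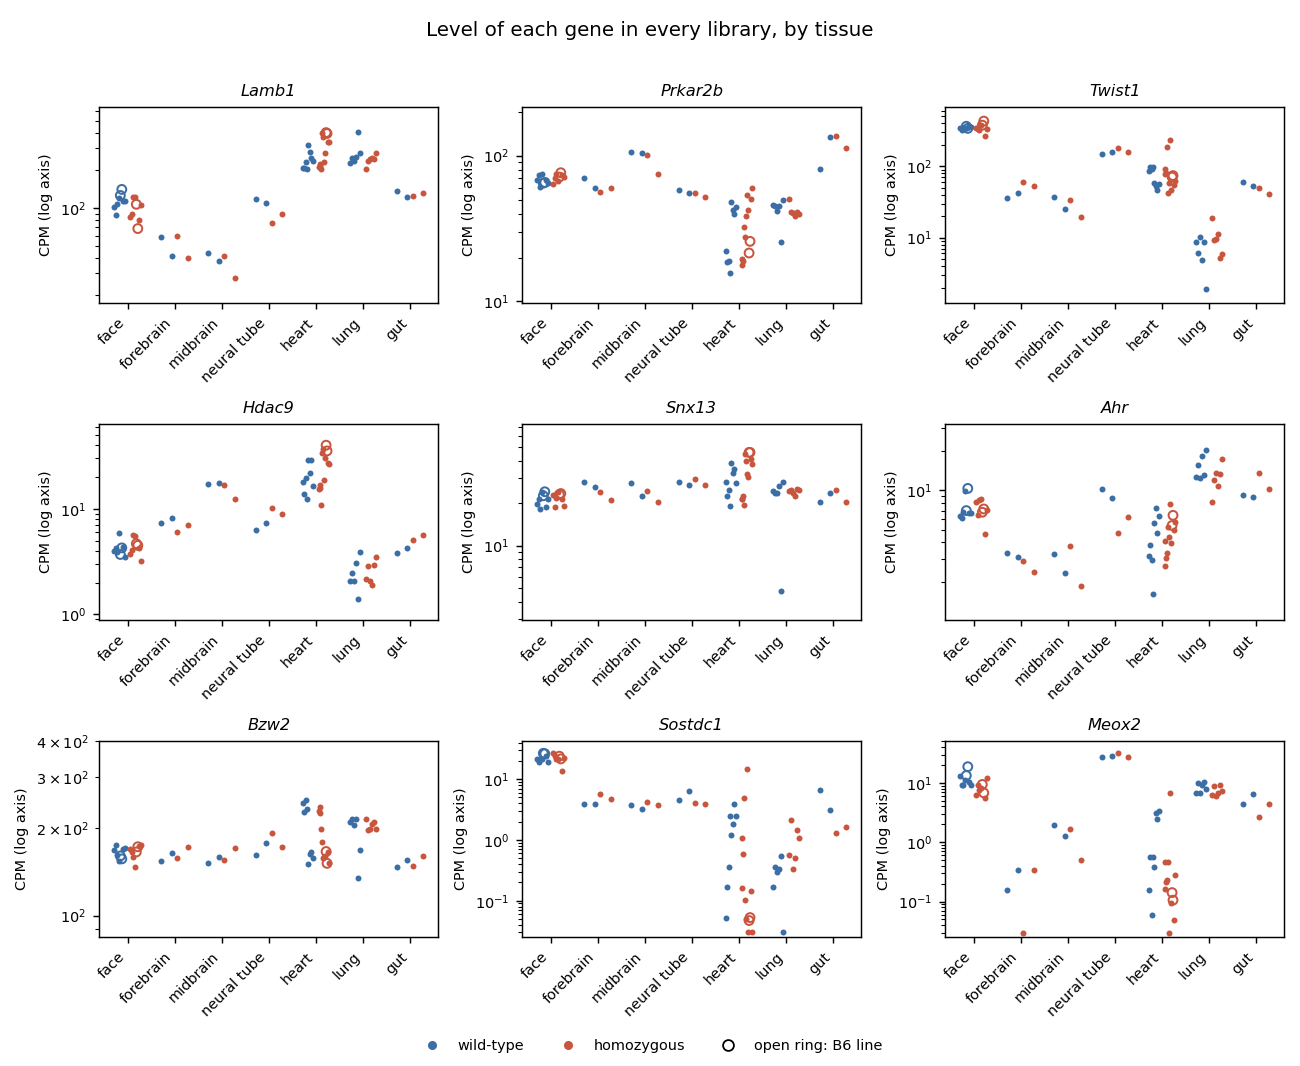
CPM (log axis) of the 9 genes in each of the 64 libraries by tissue, with WT libraries in blue, homozygous libraries in red and the B6 line as open rings, and values at 0 CPM drawn at the bottom. Twist1 and Sostdc1 stand highest in the face and Meox2 in the neural tube. Bzw2 lies between 135 and 251 CPM, and Snx13 between 18.3 and 45.9 CPM apart from 1 lung at 4.73 CPM.

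Levels of different genes were compared on the TPM scale, which takes account of length. In WT faces (n = 8) Twist1 reached 394 ± 23.1 TPM and Bzw2 159 ± 9.48 TPM, followed by Lamb1 (41.1 ± 8.07 TPM), Prkar2b (35.6 ± 3.43 TPM) and Sostdc1 (23.1 ± 3.50 TPM). Meox2 (8.76 ± 2.83 TPM), Snx13 (5.62 ± 0.823 TPM), Ahr (2.21 ± 0.583 TPM) and Hdac9 (1.58 ± 0.321 TPM) stood lower. In WT hearts (n = 8) Meox2 was at 0.691 ± 0.787 TPM and Sostdc1 at 1.05 ± 0.890 TPM, each with an SD about as large as its mean.

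Tissues were then tested within lines that gave both (edgeR's quasi-likelihood test, adjusted p by Benjamini-Hochberg over all genes tested, called under 0.05). Between WT faces and hearts of B3 and B5, 7 of the 9 genes were called, where 60.3% of all genes tested were called. Twist1 (log2 fold change 2.65, 95% interval 2.46 to 2.84), Sostdc1 (3.20, 2.66 to 3.75), Meox2 (2.21, 1.21 to 3.22) and Prkar2b (0.66, 0.47 to 0.86) were higher in the face. Hdac9 (-2.42, -2.91 to -1.92), Lamb1 (-1.37, -1.65 to -1.10) and Snx13 (-0.68, -0.96 to -0.41) were higher in the heart. Of all genes, 30.2% were higher in the face and 30% in the heart. Adjusted p-values of these 7 genes lay between 3.51e-08 and 0.00192 in the edgeR fit, and Ahr and Bzw2 were not called. In homozygous samples of the same lines Sostdc1 (log2 fold change 3.83) and Meox2 (2.83) were not called (edgeR adjusted p = 0.0986 and 0.107), B5 homozygous heart 1 being among them. Fewer cells of a type and less RNA per cell cannot be told apart in these bulk samples.

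Between WT lungs and hearts of B2, 5 of 8 genes tested were called, against 64.1% of all genes (33.8% higher in the lung and 30.3% in the heart). Meox2 (log2 fold change 4.61, interval 3.58 to 5.65), Ahr (2.41, 1.83 to 2.99) and Prkar2b (1.16, 0.73 to 1.59) were higher in the lung, and Twist1 (-3.66, -4.27 to -3.06) and Hdac9 (-2.77, -3.31 to -2.22) in the heart. Without WT lungs 5 and 6, Lamb1 (0.21) and Bzw2 (-0.15) were called as well (edgeR adjusted p = 0.00685 and 0.0166). With WT lung 1, 3, 4 or 5 left out alone, Lamb1 was called at log2 fold changes of 0.23 (without lung 5) to 0.52 (edgeR adjusted p = 0.0107 to 0.0267). In WT lung 5, Snx13 was at 4.73 CPM against 23.7 to 28.1 CPM in the other 5 WT lungs. Lamb1 was at 406 CPM against 229 to 275 CPM. Mitochondrial genes took 11.77% to 14.05% of counts in WT lungs 1 to 4 and 2.46% to 3.14% in WT hearts of B2. The TMM factor of WT lung 6 was 0.123. In TPM, Lamb1 averaged 30.2 in the WT lungs and 39.6 in the WT hearts of B2. The part of library make-up in these levels was not tested.

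Gut and midbrain of B4 differed in 5 of the 9 genes, against 50.7% of all genes (26.6% higher in the gut and 24.1% in the midbrain). Ahr (log2 fold change 1.73, interval 1.11 to 2.34), Meox2 (1.78, 0.91 to 2.65), Lamb1 (1.69, 1.39 to 1.99) and Twist1 (0.90, 0.42 to 1.37) were higher in the gut, and Hdac9 (-2.09, -2.53 to -1.66) in the midbrain. Prkar2b was called in opposite directions without WT gut 1 (0.36, edgeR adjusted p = 0.0103) and without WT gut 2 (-0.38, adjusted p = 0.00987), and Sostdc1 was called without WT gut 2 (0.95, adjusted p = 0.0271) and, in the other direction, in homozygous samples (-1.43, adjusted p = 0.0101). Forebrain and neural tube of B8 differed in 4 of the 9 genes, against 33.3% of all genes, and all 4 were higher in the neural tube, as were 18.3% of all genes, with 15% higher in the forebrain. These were Meox2 (log2 fold change -6.78, interval -7.40 to -6.16), Twist1 (-1.997, -2.25 to -1.74), Ahr (-1.60, -2.04 to -1.15) and Lamb1 (-1.20, -1.57 to -0.84). Skeletal muscle markers summed to 430 to 472 CPM in these WT neural tubes and 5.11 to 6.23 CPM in the WT forebrains. The part of these markers was not tested. In homozygous samples of B8, 2 of the 9 were called, in a fit that called 1665 genes where the WT fit called 5132, with Lamb1 and Ahr past the threshold no longer (edgeR adjusted p = 0.0819 and 0.0815). Over the 4 comparisons, other genes within 5 Mb of B6 were called in 15 of 28, 17 of 27, 14 of 27 and 8 of 27 cases, next to 7 of 9, 5 of 8, 5 of 9 and 4 of 9 for the genes described here.

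The face is the tissue of the B6 line with WT samples of its own. Meox2 was at 9.40 and 6.78 CPM in the 2 homozygous faces and at 13.3 and 18.7 CPM in the 2 WT faces. Both homozygous faces lay below both WT faces, with a log2 difference of -0.999. The 4 lowest of the 8 WT faces over all lines stood at 9.25 to 10.3 CPM, and B6 homozygous face 1 lay among them while face 2 lay below all 8. Leaving out each of the 4 libraries in turn gave log2 differences of -1.25 to -0.75.

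Lamb1 was at 107 and 68.6 CPM in the homozygous faces and at 126 and 141 CPM in the WT faces of B6. The log2 fold change was -0.61 (interval -1.09 to -0.14) without passing the threshold (edgeR adjusted p = 0.483). Without homozygous face 1 it was -0.97 and passed (edgeR adjusted p = 0.00722). It passed as well where low-count genes were kept in the fit (-0.61, adjusted p = 0.00145), a setting in which 621 genes were called in place of 11.

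The other members in B6 faces had log2 fold changes between -0.32 and 0.19. Ahr was at 6.80 and 7.21 CPM in homozygous and 7.01 and 10.4 CPM in WT faces (-0.32, interval -0.83 to 0.18), and these groups overlapped. Sostdc1 was at 23.9 and 21.6 CPM in homozygous and 26.7 and 26.2 CPM in WT faces (-0.23, interval -0.53 to 0.07). Snx13, the gene nearest to the deletion, was at 23.1 and 23.4 CPM against 22.6 and 24.1 CPM (-0.02, interval -0.30 to 0.27). Twist1 (0.19, interval -0.11 to 0.48), Hdac9 (0.19, interval -0.28 to 0.67), Prkar2b (0.17, interval -0.08 to 0.43) and Bzw2 (0.08, interval -0.18 to 0.34) had intervals on both sides of 0. Of the 8 genes tested 0 were called by edgeR, 1 had an unadjusted p under 0.05 (Lamb1) and 0 were called by DESeq2, where edgeR called 0.0723% of 15210 genes and 8.65% had an unadjusted p under 0.05.

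Sums of several marker lists differed without overlap between these homozygous and WT faces, which is frequent by chance with 2 samples a group. The 10 skeletal muscle markers summed to 50.1 and 59.9 CPM in homozygous and 103 to 130 CPM in WT faces, and no marker was at 0 counts. The 18 trunk Hox genes summed to 0.705 to 1.67 CPM against 3.65 to 25.999 CPM, with up to 15 of 18 at 0 counts, and the 10 facial mesenchyme markers to 1135 to 1155 CPM against 956 to 999 CPM, with none at 0. Also lower in homozygous faces were the sums of cardiomyocyte (9.64 to 11.8 CPM against 21.5 to 27.7 CPM) and lung markers (166 to 181 CPM against 189 to 213 CPM). Higher were those of forebrain (255 to 291 CPM against 160 to 223 CPM), midbrain (17.01 to 18.2 CPM against 12.5 to 12.7 CPM), neural tube (70.3 to 78.1 CPM against 51.7 to 61.5 CPM), neuron (910 to 931 CPM against 783 to 850 CPM), gut (242 to 246 CPM against 198 to 215 CPM) and liver markers (1.11 to 2.08 CPM against 0.416 to 0.768 CPM). At most 3 markers of any of these further lists were at 0 counts. Mitochondrial genes took 0.66% and 0.48% of counts in homozygous and 1.17% and 1.06% in WT faces. The part of these markers and of this share in the values of Meox2 and Lamb1 was not tested.

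**Figure D2:**
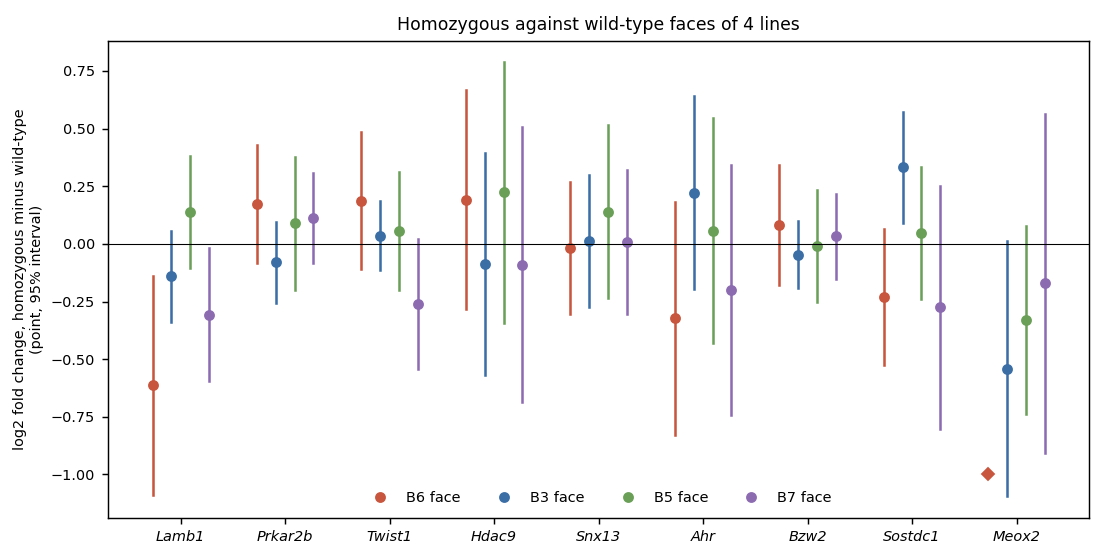
Log2 fold change of the 9 genes, homozygous minus WT, in the faces of B6, B3, B5 and B7, with points for the edgeR estimate and bars for its 95% interval, and a diamond without a bar for Meox2 in B6, which was not tested. Meox2 lies below 0 in all 4 lines and Lamb1 in 3 of 4, while Snx13 and Bzw2 lie close to 0 in each.

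Faces of lines with an intact B6 boundary gave the values that these genes take without its loss. Meox2 was lower in homozygous than in WT faces by a log2 fold change of -0.54 in B3 (interval -1.09 to 0.01), -0.33 in B5 (-0.74 to 0.08) and -0.17 in B7 (-0.91 to 0.56), none of them called. Lamb1 had log2 fold changes of -0.31 in B7 (edgeR adjusted p = 0.634, and -0.51 with adjusted p = 0.00624 without homozygous face 2), -0.14 in B3 and 0.14 in B5. In 1 fit of the 16 faces, the effect on Lamb1 in B6 differed from the mean effect of the other 3 lines by -0.51 on the log2 scale (interval -0.94 to -0.08, unadjusted p = 0.0237, edgeR adjusted p = 0.687), and 0 genes were called. Differences for the other 7 genes tested ran from -0.35 (Ahr, interval -0.92 to 0.22) to 0.24 (Twist1, interval -0.04 to 0.53), with every interval on both sides of 0. This test was chosen after the values had been seen, and Meox2 was left out of it.

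Homozygous and WT samples were compared in 13 settings in all. edgeR called 0 of 112 tests of these genes at an adjusted p under 0.05 and 14 had an unadjusted p under 0.05, while DESeq2 called 1 (Sostdc1 in B3 heart). Over all genes edgeR called 0 to 11 genes in a comparison, which came to 0.0131% in B3 face, 0.00677% in B4 midbrain, 0.0723% in B6 face, 0.0329% in B7 face, 0.0132% in B8 neural tube and 0% in the others. Of the 14, 11 came from the 11 comparisons within a line where B6 is intact (11 of 95 tests), where 0.748% (B5 heart) to 10% (B8 neural tube) of all genes had such a p. The share of all genes was 3.21% in B5 face, 3.19% in B2 lung, 4.85% in B2 heart, 5.57% in B8 forebrain, 6.9% in B4 gut, 7.25% in B4 midbrain, 7.55% in B7 face, 9.47% in B3 heart and 9.49% in B3 face. Other genes within 5 Mb of B6 were called in 0 of 333 tests by edgeR, with an unadjusted p under 0.05 in 17.

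**Figure D3:**
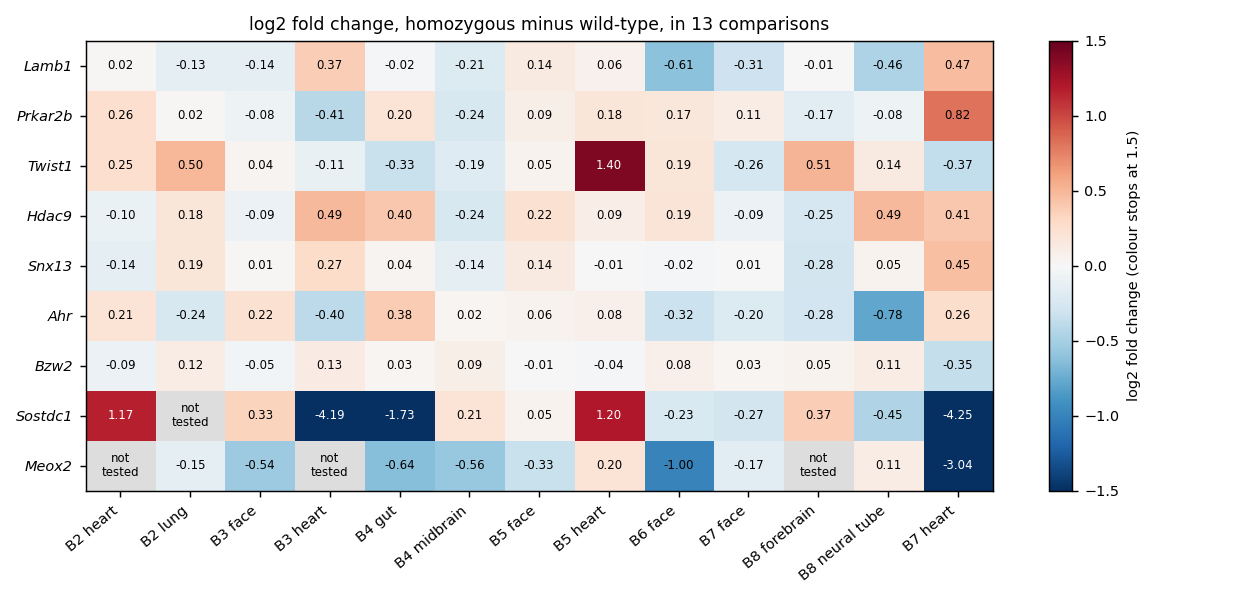
Log2 fold change, homozygous minus WT, of each gene (rows) in the 13 comparisons (columns), with colours that stop at 1.5 and grey where a gene was too low to be tested; B7 heart is set against the 8 WT hearts of other lines and Meox2 in B6 face is a description. The values farthest from 0 are those of Sostdc1 in B3 and B7 heart (-4.19 and -4.25) and Meox2 in B7 heart (-3.04), and Bzw2 stays within 0.13 of 0 outside B7 heart.

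The genes with an unadjusted p under 0.05 in lines with B6 intact were spread over tissues. In the gut of B4, Sostdc1 was at 1.30 and 1.63 CPM in homozygous and 6.72 and 3.06 CPM in WT samples (log2 fold change -1.73, interval -2.73 to -0.74, edgeR adjusted p = 0.384). It was called without WT gut 2 (-2.20, edgeR adjusted p = 0.00905) and where low-count genes were kept (-1.73, adjusted p = 0.000138). Twist1 had a log2 fold change of -0.33 there (interval -0.66 to -0.01). Skeletal muscle markers summed to 14.3 to 23.97 CPM in homozygous and 34.998 to 168 CPM in WT guts, neuron markers to 90.9 to 104 CPM against 145 to 209 CPM, and forebrain markers to 35.6 to 38.6 CPM against 40.3 to 42.05 CPM. Epithelium (370 to 389 CPM against 248.6 to 330 CPM), gut (227 to 252 CPM against 184 to 213 CPM), macrophage (111 to 117 CPM against 90.0 to 97.8 CPM) and liver markers (4944 to 7171 CPM against 4513 to 4608 CPM) summed higher in homozygous guts. None of these markers was at 0 counts apart from up to 2 of the 7 forebrain markers. Their part in the levels of Sostdc1 and Twist1 was not tested.

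In the neural tube of B8, Ahr was at 4.75 and 6.29 CPM in homozygous and 10.2 and 8.78 CPM in WT samples (-0.78, interval -1.29 to -0.26, edgeR adjusted p = 0.419). Lamb1 stood at 75.4 and 89.3 CPM against 117 and 110 CPM (-0.46, interval -0.72 to -0.19), and Hdac9 at 10.1 and 8.88 CPM against 6.30 and 7.28 CPM (0.49, interval 0.03 to 0.95). None of these groups overlapped, which is frequent by chance with 2 samples a group. The share of all genes without overlap was not counted. Neuron markers (1866 to 2007 CPM against 2103 to 2331 CPM) and macrophage markers (22.4 to 29.6 CPM against 34.1 to 38.6 CPM) summed lower, and epithelium markers (77.0 to 100.9 CPM against 60.5 to 75.5 CPM) higher, in homozygous samples, and their part was not tested. Ahr and Lamb1 were called without homozygous neural tube 2 (log2 fold changes -0.996 and -0.59, edgeR adjusted p = 0.0244 and 0.02201). In the forebrain of that line Twist1 was at 59.4 and 52.3 CPM against 35.95 and 42.5 CPM (0.51, interval 0.14 to 0.87, edgeR adjusted p = 0.826). In the midbrain of B4 and the faces of B5 no gene had an unadjusted p under 0.05. Sostdc1 in B3 faces was at 26.8 and 24.3 CPM against 21.4 and 19.1 CPM (0.33, interval 0.09 to 0.57). Its log2 fold change in B3 face minus that in B3 heart was 4.54 (interval 3.45 to 5.62, edgeR adjusted p = 0.0388). This test was chosen after the values had been seen and called 0.0311% of genes.

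In the lungs of B2 (6 homozygous and 6 WT), 0 of 8 genes were called by edgeR or DESeq2 and 0 had an unadjusted p under 0.05, where 0% of 15063 genes were called. Meox2 ran from 6.09 to 9.37 CPM (median 7.07 CPM) in homozygous and 6.66 to 10.3 CPM (median 8.46 CPM) in WT lungs (-0.15). Ahr ran from 8.21 to 17.3 CPM against 12.6 to 20.4 CPM (-0.24), and Lamb1 from 207 to 277 CPM against 229 to 406 CPM (-0.13). These groups overlapped for each gene.

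In B6 hearts, Snx13 was at 45.9 and 45.9 CPM, Hdac9 at 39.9 and 35.3 CPM, and Lamb1 at 402 and 396 CPM. The 8 WT hearts ran from 19.1 to 38.4 CPM for Snx13 (median 28.2 CPM), 12.4 to 28.8 CPM for Hdac9 (median 18.8 CPM) and 207 to 319 CPM for Lamb1 (median 235 CPM). Both B6 hearts therefore lay above all 8 WT hearts for 3 of the 9 genes, with log2 ratios of means of 0.68, 0.91 and 0.71, and for 0 of the 9 below them. Over 15512 genes, 11.2% lay above the WT range and 9.81% below it in this way, and 3 above and 1 below of 27 other genes within 5 Mb. These values helped to choose the genes and are given as a description. The 5 endothelium markers, none at 0 counts, summed to 678 to 727 CPM in B6 hearts against 469 to 582 CPM in the 8 WT hearts. Neuron (31.5 to 33.8 CPM against 35.96 to 127 CPM), lung (154 to 163 CPM against 166 to 346 CPM) and epithelium markers (56.3 to 66.8 CPM against 88.4 to 197 CPM) summed lower. The part of these markers in the 3 genes was not tested.

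Homozygous hearts with an intact B6 boundary reached similar levels in B3 but not in B5 or B2. In the homozygous hearts of B5 and B2, 0 of the 9 genes lay above the WT range, where 1.92% and 0.0602% of all genes did. Their means were 31.4 and 21.3 CPM for Snx13, 24.4 and 14.7 CPM for Hdac9, and 256 and 215 CPM for Lamb1. In the 2 homozygous hearts of B3, Snx13 was at 44.7 and 40.01 CPM, Hdac9 at 33.5 and 36.5 CPM, and Lamb1 at 397 and 369 CPM, above all 8 WT hearts for the same 3 genes, where 6.8% of 15541 genes lay above. In the 2 homozygous hearts of B7, Snx13 was at 40.97 and 38.2 CPM, Hdac9 at 27.3 and 26.3 CPM, and Lamb1 at 341 and 338 CPM, and both hearts lay above the WT range for Lamb1 and Prkar2b, where 6.19% of 15593 genes lay above. Endothelium markers summed to 609 to 726 CPM in the B3 and 537 to 598 CPM in the B7 homozygous hearts, and their part in these levels was not tested. B7 hearts are set against the same WT hearts as B6 hearts. Against all 18 other hearts, Snx13 alone of the 9 genes was outside the range in B6, by 45.9 CPM against at most 44.7 CPM. The share of all genes outside that range was not counted, and the B6 heart values helped to choose these genes.

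**Figure D4:**
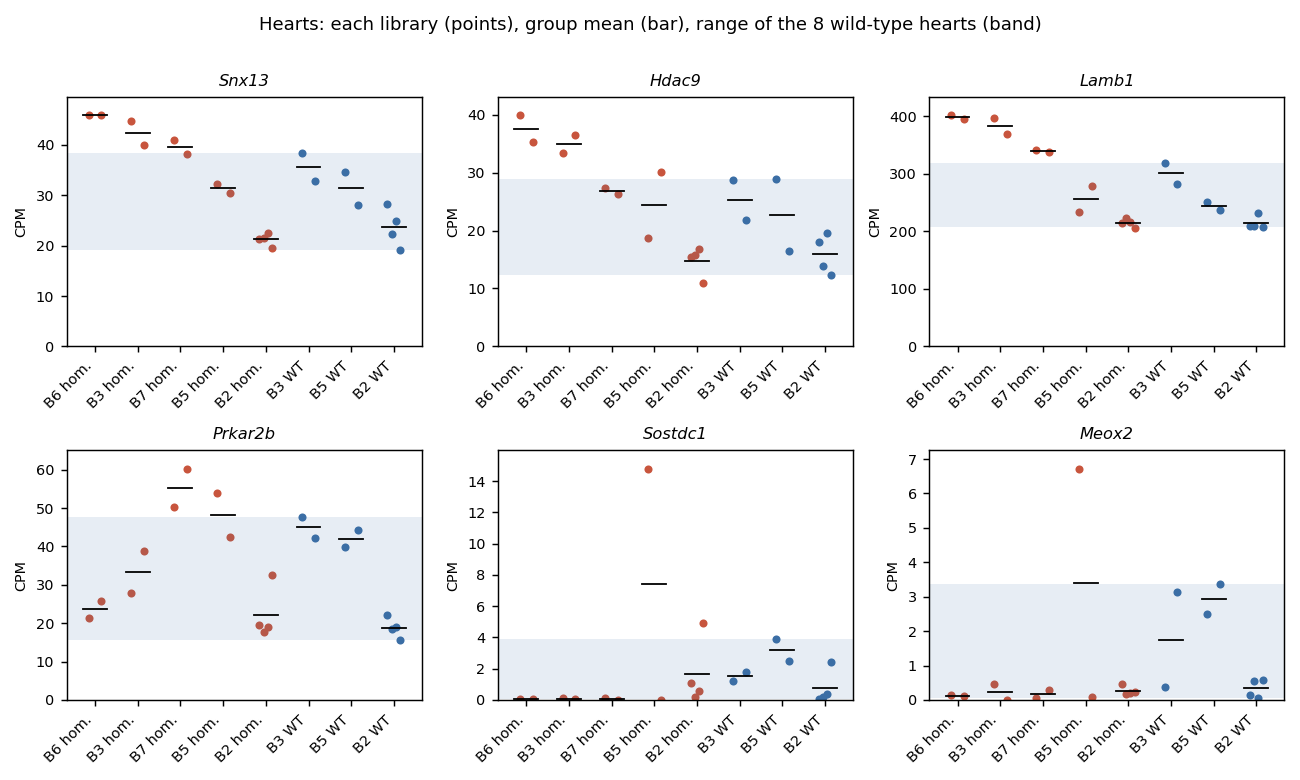
CPM of 6 genes in every heart (points) with group means (bars) and the range of the 8 WT hearts (band), homozygous hearts in red and WT hearts in blue. Snx13, Hdac9 and Lamb1 are above the band in the hearts of B6 and also of B3, in which B6 is intact, and Sostdc1 and Meox2 are under 0.5 CPM in B6, B3 and B7 homozygous hearts.

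Sostdc1 and Meox2 were counted little in these hearts. Sostdc1 had 2 counts over both B6 hearts, next to 240 counts over the 8 WT hearts (0.0472 and 0.0528 CPM in the B6 hearts). Meox2 had 5 counts next to 213 (0.142 and 0.106 CPM). WT hearts themselves ran from 0.0521 to 3.87 CPM for Sostdc1 and 0.0593 to 3.37 CPM for Meox2, and the B6 hearts were within the WT range for Meox2 and overlapped its lower end for Sostdc1. WT means in B2, B3 and B5 were 0.757, 1.51 and 3.17 CPM for Sostdc1 and 0.338, 1.75 and 2.93 CPM for Meox2. Log2 ratios of B6 hearts to these lines were -3.92, -4.92 and -5.99 for Sostdc1, and -1.45, -3.83 and -4.57 for Meox2.

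Homozygous hearts of B7 and B3 held few counts of both genes too. In B7 hearts Sostdc1 had 3 counts, 0.0498 of the level over the 8 WT hearts (exact 95% interval 0.0102 to 0.147 for counting error only). Meox2 had 6 counts there (0.112, interval 0.0407 to 0.248). In B3 homozygous hearts Sostdc1 had 3 counts against 64 in the 2 WT hearts of B3 (0.05, interval 0.01 to 0.153), and Meox2 9 against 74 (0.130, interval 0.0571 to 0.260). B5 homozygous heart 1 was the highest of all hearts for both genes (14.8 CPM of Sostdc1 and 6.72 CPM of Meox2), while B5 homozygous heart 2 was at 0.00 and 0.10 CPM. In B2 homozygous hearts Sostdc1 ran from 0.162 to 4.92 CPM and Meox2 from 0.162 to 0.458 CPM. Trunk Hox genes summed to 0.845 to 1.56 CPM in B6 hearts, 1.41 to 3.78 CPM in B7 hearts and 2.41 to 9.85 CPM in B3 homozygous hearts. They summed to 3.69 to 8.30 CPM in B5 and 5.29 to 41.1 CPM in B2 homozygous hearts. WT hearts held 9.32 to 131 CPM of them in B3 and B5, and 2.49 to 14.9 CPM in B2. The part of these markers in the levels of Sostdc1 and Meox2 was not tested.

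Sostdc1 in B3 hearts had the lowest unadjusted p of these genes in a genotype comparison with B6 intact. It was at 0.10 and 0.05 CPM in homozygous and 1.22 and 1.80 CPM in WT hearts (log2 fold change -4.19, interval -5.83 to -2.56, edgeR adjusted p = 0.525, DESeq2 adjusted p = 0.0494). In the same hearts Hdac9 (33.5 and 36.5 CPM against 28.7 and 21.9 CPM) had a log2 fold change of 0.49 (interval 0.06 to 0.92), and Lamb1 (397 and 369 CPM against 319 and 283 CPM) one of 0.37 (interval 0.06 to 0.69). Cardiomyocyte and endothelium markers summed higher in these homozygous hearts than in the 2 WT hearts of B3 (19579 to 21242 CPM against 10534 to 16093 CPM, and 609 to 726 CPM against 510 to 582 CPM), and epithelium and neuron markers lower (52.5 to 71.7 CPM against 88.4 to 164 CPM, and 31.98 to 35.7 CPM against 45.7 to 127 CPM), as were those of forebrain, neural tube, lung, facial mesenchyme and macrophage, while skeletal muscle markers were higher. The part of these markers was not tested. In the B7 hearts, Lamb1 (0.47, interval 0.10 to 0.83) and Sostdc1 (-4.25, interval -7.92 to -0.58) had an unadjusted p under 0.05 and an edgeR adjusted p of 0.506, where 9.56% of 15593 genes had such a p and 0% were called. Outside the WT range lay 11.5% of genes in B7 hearts (5.31% below), 14% in B3 homozygous hearts (7.2% below) and 21% in B6 hearts.

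Prkar2b, Bzw2, Twist1 and Ahr were within the range of the WT hearts in B6. Prkar2b was at 21.5 and 25.8 CPM against 15.6 to 47.8 CPM, and WT hearts differed by line, with means of 18.8 CPM in B2, 44.9 CPM in B3 and 42.03 CPM in B5. The log2 ratio of B6 hearts to WT hearts was accordingly 0.33 against B2, -0.93 against B3 and -0.83 against B5. Bzw2 was at 166 and 151 CPM against means of 239 CPM in B2, 157 CPM in B3 and 162 CPM in B5 WT hearts. Twist1 (70.7 and 74.1 CPM against 47.1 to 97.8 CPM) and Ahr (5.38 and 6.44 CPM against 1.62 to 7.30 CPM) had log2 ratios of -0.02 and 0.42. Against the WT hearts of B2, B3 or B5 alone, 6, 7 and 7 of the 9 genes lay outside the WT range, where 67.3%, 56% and 63.1% of 15512 genes did so beside 4, 2 and 2 WT hearts.

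**Figure D5:**
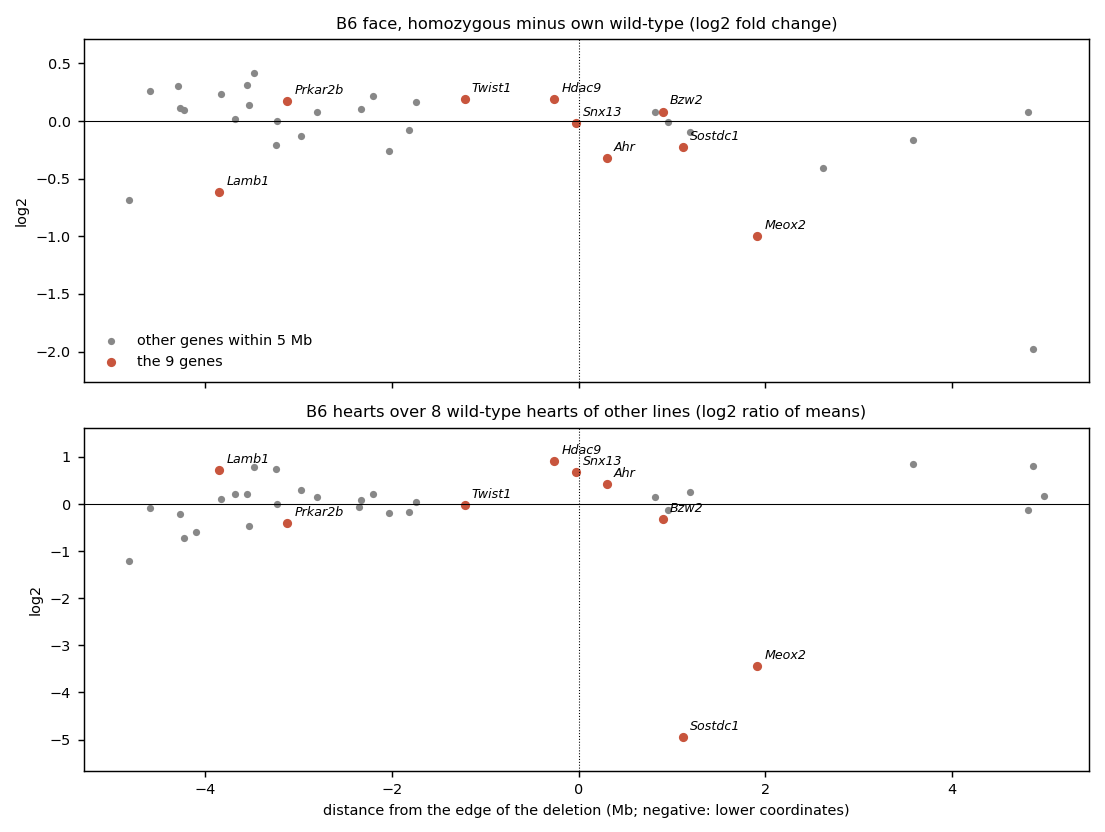
Log2 fold change in B6 faces (upper panel) and log2 ratio of means in B6 hearts over 8 WT hearts of other lines (lower panel) against distance from the edge of the deletion in Mb, for the 9 genes in red and the other genes within 5 Mb in grey. Snx13, the nearest gene, is at -0.02 in the face and 0.68 in the heart, and Meox2, 1.91 Mb away, is at -0.999 and -3.44.

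Among the 26 other genes within 5 Mb that were tested in B6 faces, the median log2 fold change was 0.08, beside -0.02 over the 9 genes and 0.01 over all genes, and 0 were called by edgeR, with 1 at an unadjusted p under 0.05. In B6 hearts the median log2 ratio was 0.08 over the other genes within 5 Mb, -0.02 over the 9 genes and -0.08 over all genes.

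Across the 26 groups of line, tissue and genotype, the genes most like each of the 9 in mean log2(TPM + 1) were listed among 13098 genes. Groups of 1 tissue resemble each other, TPM depend on the make-up of each library, and Pearson's r is given as a description. Twist1 was closest to Lmo4 (0.98) and Fhl3 (0.971), Sostdc1 to Prrx1 (0.974) and Trp63 (0.973), and Meox2 to Insc (0.973) and Foxd3 (0.964). Ahr was closest to Pdgfra (0.926) and Ptk7 (0.911), Hdac9 to Mfsd6 (0.969) and Cpeb2 (0.960), and Lamb1 to Creb3l2 (0.947) and Fn1 (0.922). Prkar2b was closest to Mettl16 (0.962) and Glul (0.961), Snx13 to Pja2 (0.969) and Hif1a (0.962), and Bzw2 to Psmd8 (0.984) and Igbp1 (0.982). Among the 9 genes themselves the highest values were those of Twist1 with Sostdc1 (0.823) and Ahr with Meox2 (0.742).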

How the data were processed

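The authors mapped paired 150 bp reads to mm10 with STAR and estimated expected counts, TPM and FPKM per gene of gencode M4 with RSEM. The deposited expected counts are not normalized, deposited TPM are scaled to a common sum per library, and deposited FPKM, scaled to length and depth, were not used. Library kit and strand setting are not given in the sources used here. Expected counts were rounded, and genes kept by filterByExpr entered a quasi-likelihood fit with TMM factors in edgeR 4.0.16, on the groups compared, with Benjamini-Hochberg adjustment and 95% intervals. CPM used TMM factors over all 64 libraries. DESeq2 1.42.0 was an alternative. Gene positions came from GENCODE on GRCm38 and promoters from RefSeq. Tests across tissues of a line used WT samples, with line as a covariate for face and heart. No replicates were identical (lowest chi-square per gene 6.69 over 64 pairs). The fits were tested on simulated data with 200 changed genes. Simulated spread between samples followed its trend over abundance, without spread particular to a gene or to a library. The shares called may therefore be lower in the real samples. Of 1.5-fold changes, 27% were called in B6 face, 4% in B2 lung and 50% in face against heart. Of 2-fold changes, 76%, 59% and 88% were called, so that changes of these sizes can be missed. Genes named are the 9, and per gene the 2 most alike. The 9 genes and the lists were chosen with earlier results of these data known. Hi-C samples were not analysed here.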

Additional observations from a re-analysis of the deposited data

Results flagged for a closer look

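Samples far from the rest of their group were sought in the hearts and lungs of B2, where groups hold 4 or 6 samples, and 8 values stood apart over 36 groups of a gene, with chance giving about 1 in 20 groups. In WT lung 5, which had few mitochondrial counts, Lamb1 was the highest of 6 (406.4 CPM) and Prkar2b (25.49 CPM) and Snx13 (4.729 CPM) were the lowest. In homozygous lung 1, Prkar2b was the highest of 6 (50.37 CPM). In homozygous heart 4, which had 1210 CPM of liver markers, Prkar2b (32.45 CPM) and Twist1 (187.4 CPM) were the highest of 4. In WT hearts of B2, Lamb1 was highest in heart 3 (232.0 CPM) and Sostdc1 in heart 4 (2.45 CPM). These libraries stayed in the values given above.

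In B3, the difference in Sostdc1 between homozygous and WT samples differed between face and heart. This test was chosen after the values had been seen. The log2 fold change in the face minus that in the heart was 4.54 (interval 3.45 to 5.62, edgeR adjusted p = 0.0388), the only one of 53 such differences over 6 fits to be called, where 8 had an unadjusted p under 0.05. In the heart 2 of 2 homozygous samples lay below both WT samples and in the face 2 of 2 lay above them. The B3 homozygous hearts held 3 counts of Sostdc1 in all, and B6 is intact in this line. In the heart alone edgeR did not call Sostdc1 (adjusted p = 0.525). Trunk Hox genes summed to 2.41 to 9.85 CPM in these homozygous hearts, against 9.32 to 80.5 CPM in WT hearts of B3. Forebrain markers summed to 3.79 to 5.98 CPM against 8.47 to 43.2 CPM. Cardiomyocyte markers summed to 19579 to 21242 CPM against 10534 to 16093 CPM. The part of these markers was not tested.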

How the results depend on the processing

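Homozygous and WT groups share no replicate numbers in the labels, but the titles of the B2 lungs carry an embryo code with 3 prefixes, each with both genotypes, whose meaning is not given in the sources used here. With this prefix as a replicate block, an alternative added after seeing the data, 0 of 8 genes were called in B2 lung, 0 had an unadjusted p under 0.05 and 0 of 15063 genes were called. No paired analysis was possible because the labels hold no such code for the other groups. Counts of these genes called (0 in each genotype comparison, beside 0 to 11 over all genes) are given with the count over all genes of the same fit. They became 1 in B3 heart with DESeq2 (of 93), and 1 of 483 in B4 gut, 1 of 621 in B6 face and 2 of 665 in B8 neural tube where low-count genes were kept, and 3 of 2974 in B7 heart in the joint fit of all 64 libraries. Against WT hearts of B2 or B5 alone, 7 of 8561 and 2 of 807 were called in B7 heart. Homozygous samples gave 2 of 1665 calls in forebrain against neural tube, in place of 4 of 5132. Leaving out single libraries gave 0 to 2 calls in B4 gut (2 of 520 without WT gut 2), B5 heart (2 of 919 without homozygous heart 2) and B8 neural tube (2 of 1004 without homozygous sample 2), 0 to 1 in B4 midbrain (1 of 549) and B6 face (1 of 400, without homozygous sample 1 in each), and 0 to 4 in B7 face (4 of 634 without homozygous face 2). For B6 hearts, 6, 7 and 7 genes lay outside the range of WT hearts of B2, B3 or B5 alone (67.3%, 56% and 63.1% of all genes). Outside the range of the 10 homozygous hearts of other lines (chosen after seeing the data) lay 1 gene. Without single libraries, 3 to 4 lay outside the range of the WT hearts. The share of all genes was not counted in these last settings. In TPM, 3 of 9 genes kept their highest tissue. The cause was not tested. Windows of 1, 2 or 5 Mb held 0 called genes in the genotype comparisons. Over all genes DESeq2 called 10 to 161 genes in a genotype comparison in place of 0 to 11.

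These signs turned. In lung against heart, Snx13 was 0.19 in homozygous samples and 0.074 without both lungs that stood apart. In gut against midbrain, homozygous samples gave Snx13 0.027 and Sostdc1 -1.43. In forebrain against neural tube they gave Hdac9 -0.54 and Sostdc1 0.36. In face against heart Bzw2 was -0.055 in homozygous samples and, in an alternative added after seeing the data, -0.088 without B3 WT hearts. Leaving out single libraries, Bzw2 ran from -0.00057 to 0.084 in face against heart and -0.077 to 0.0075 in gut against midbrain, Snx13 from -0.19 to 0.0897 in lung against heart, -0.085 to 0.034 in forebrain against neural tube and -0.047 to 0.0099 in B6 face, and in gut against midbrain Sostdc1 from -0.18 to 0.95 and Prkar2b from -0.38 (edgeR adjusted p = 0.00987) to 0.36.

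With 2 samples a group the intervals above are wide, and Sostdc1 and Meox2 in hearts rest on few counts. Groups of 2 without overlap arise often by chance, and the share of all genes without overlap was not counted.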
